A study of Mus musculus with 2 samples.

Results

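The 8 lipocalin genes followed here lie on chromosome 2 of the mouse and were read in a capture of methylated testis DNA, 1 library of a Kaiso knockout and 1 of a wildtype. The members were Ptgds, Lcn12, Lcn8, Lcn5, Lcn6, Lcn10, Lcn9 and Lcn2, picked by name, and each was read over its gene span plus 1 kb on each side. These regions held 54 of the 2537435 windows of 100 bp that the deposited table lists, and the 8 genes are 8 of the 21887 protein-coding genes of the annotation. The knockout library came from a testis of a male labelled Kaiso KO, of generation 3, male sterile, on the C57BL/6 background. The wildtype library came from a testis of a C57BL/6 male labelled wildtype. The description of the knockout sample also calls its testis wildtype, so every knockout value rests on the genotype label. Neither the deleted part of the Kaiso gene nor the number of animals behind a library was given in the sources used here. Methylated DNA had been pulled down with the methyl-CpG binding domain of MBD2, so a window's count is a number of captured fragments covering it and not a methylation fraction.

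Lipocalins are small secreted proteins that fold into a barrel with a pocket for a hydrophobic ligand such as a retinoid, a steroid or a prostaglandin. A row of their genes on chromosome 2 arose by tandem duplication, and several of them are known for expression in the epididymis, where spermatozoa mature after leaving the testis. Ptgds encodes an enzyme as well as a carrier, since it makes prostaglandin D2. Kaiso, the protein of Zbtb33, is a zinc finger protein that binds methylated CpG pairs and also an unmethylated sequence, TCCTGCNA. The label of an epididymal cluster was checked against positions. Ptgds to Lcn9 spanned 358.8 kb, whereas Lcn2 lay 6.56 Mb beyond Lcn9 and is a lipocalin of neutrophils and epithelia rather than a gene of that row.

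The regions around the starts of these genes held few CpGs, which sets how much of them a methyl-CpG capture can read. RefSeq promoters of build GRCm38.p6, from 250 bases before to 50 after the start, matched all 8 genes and had 0 to 4 CpGs each, against a median of 7 over 32851 promoters. Of the 8, only the promoter of Lcn2 overlapped listed windows, and those were 2. Promoters of 4 genes are shown because they span the range, with the 2 bases of every CpG in capitals. They lie at chr2:32387690-32387989 on the minus strand (Lcn2), chr2:25493862-25494161 on the minus strand (Lcn12, the most CpGs), chr2:25469700-25469999 on the minus strand (Ptgds) and chr2:25657702-25658001 on the plus strand (Lcn5, no CpG).
Lcn2: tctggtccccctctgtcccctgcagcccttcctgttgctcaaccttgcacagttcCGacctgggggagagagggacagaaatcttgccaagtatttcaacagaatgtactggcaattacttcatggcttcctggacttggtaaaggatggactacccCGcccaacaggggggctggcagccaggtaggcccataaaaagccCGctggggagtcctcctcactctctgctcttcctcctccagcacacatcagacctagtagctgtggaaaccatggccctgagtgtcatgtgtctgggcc
Lcn12: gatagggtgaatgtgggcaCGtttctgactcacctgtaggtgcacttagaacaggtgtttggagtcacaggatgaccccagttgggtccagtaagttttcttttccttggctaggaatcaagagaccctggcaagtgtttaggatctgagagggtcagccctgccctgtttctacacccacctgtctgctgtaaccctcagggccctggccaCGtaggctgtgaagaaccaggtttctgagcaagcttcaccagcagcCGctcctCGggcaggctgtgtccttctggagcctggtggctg
Ptgds: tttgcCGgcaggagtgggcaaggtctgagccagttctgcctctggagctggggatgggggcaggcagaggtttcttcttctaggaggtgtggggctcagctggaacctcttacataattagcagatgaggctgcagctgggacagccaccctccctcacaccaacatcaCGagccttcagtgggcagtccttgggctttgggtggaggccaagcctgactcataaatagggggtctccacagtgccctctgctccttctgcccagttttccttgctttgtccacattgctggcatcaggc
Lcn5: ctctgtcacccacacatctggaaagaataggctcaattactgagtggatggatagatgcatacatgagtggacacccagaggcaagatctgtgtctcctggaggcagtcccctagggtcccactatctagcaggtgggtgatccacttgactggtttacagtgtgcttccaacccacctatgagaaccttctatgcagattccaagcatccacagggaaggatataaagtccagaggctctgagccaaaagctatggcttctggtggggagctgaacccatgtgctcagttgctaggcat
In the Lcn2 sequence the CpGs start at bases 56, 158 and 202, counted from its 5′ end. The listed window from 32387801 to 32387900 covers bases 90 to 189 and the one from 32387701 to 32387800 covers bases 190 to 289, so each holds 1 of them, the number the table gives. The motif TCCTGCNA, searched on both strands, was in 0 of the 8 promoters and in 4.96% of all promoters, and CGCG, which reads the same on both strands, was in 0 of 8 and in 38.0% of all. CGCG itself holds 2 CpGs, so its absence from promoters with 0 to 4 CpGs says little. The share among promoters as CpG-poor was not computed. For TCCTGCNA, 0 of 8 says little beside a share of 4.96%.

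The libraries held 98549116 reads (knockout) and 87710791 reads (wildtype), read from the ratio of the deposited counts to the deposited RPKM (reads per kilobase, scaled to library size). Every listed window had a deposited p-value below 0.05 without adjustment, so ratios in them are pushed away from 1, and a window that is not listed was not shown to be unchanged. With 1 library per genotype no difference has a replicate check, and the 95% intervals are exact Clopper-Pearson intervals that cover counting error only. The members were chosen with knockout and wildtype counts of these libraries known, so their ratios are a description and none is tested. The targeted gene, Zbtb33 on chromosome X from 38189793 to 38197046, had 83 knockout and 303 wildtype counts in 16 listed windows (log2 ratio -2.04, -2.80 to -1.31), with 1 of the 16 windows higher. As a check of the label this is weak, since which bases were deleted was not given. A ratio at least 2-fold lower with an interval excluding 1 was found in 1097 of 19245 protein-coding genes. Lower capture at Zbtb33 therefore cannot tell a deletion from lower capture without one.

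Captured DNA of the lipocalin genes was lower in the knockout library in most windows. Of the 54 windows 43 were lower, in all 8 genes, and 11 were higher, in Ptgds, Lcn6 and Lcn10. That is 20.4% higher among the members, against 56.5% over all listed windows. Counting intervals of some higher windows, in Ptgds, Lcn6 and Lcn10 alike, included a log2 ratio of 0, and those of the lower windows did not. The lower windows had a median of 15 knockout and 43 wildtype counts, and the higher ones a median of 124 knockout and 82 wildtype counts. Lower windows also moved further, with a median log2 ratio of knockout over wildtype of -1.49 against 0.51 in higher ones, scaled by library reads. Over all listed windows the medians were -1.70 and 0.69, both farther from 0 than those of the members. At least 2-fold lower were 32 windows, and 12 of these were at least 4-fold lower, while 0 were 2-fold higher. Over all listed windows 38% were at least 2-fold lower, 16.1% at least 4-fold lower and 17.6% at least 2-fold higher. Summed once per window, the members held 2146 knockout and 2541 wildtype counts (log2 -0.41, -0.58 to -0.24).

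**Figure D1:**
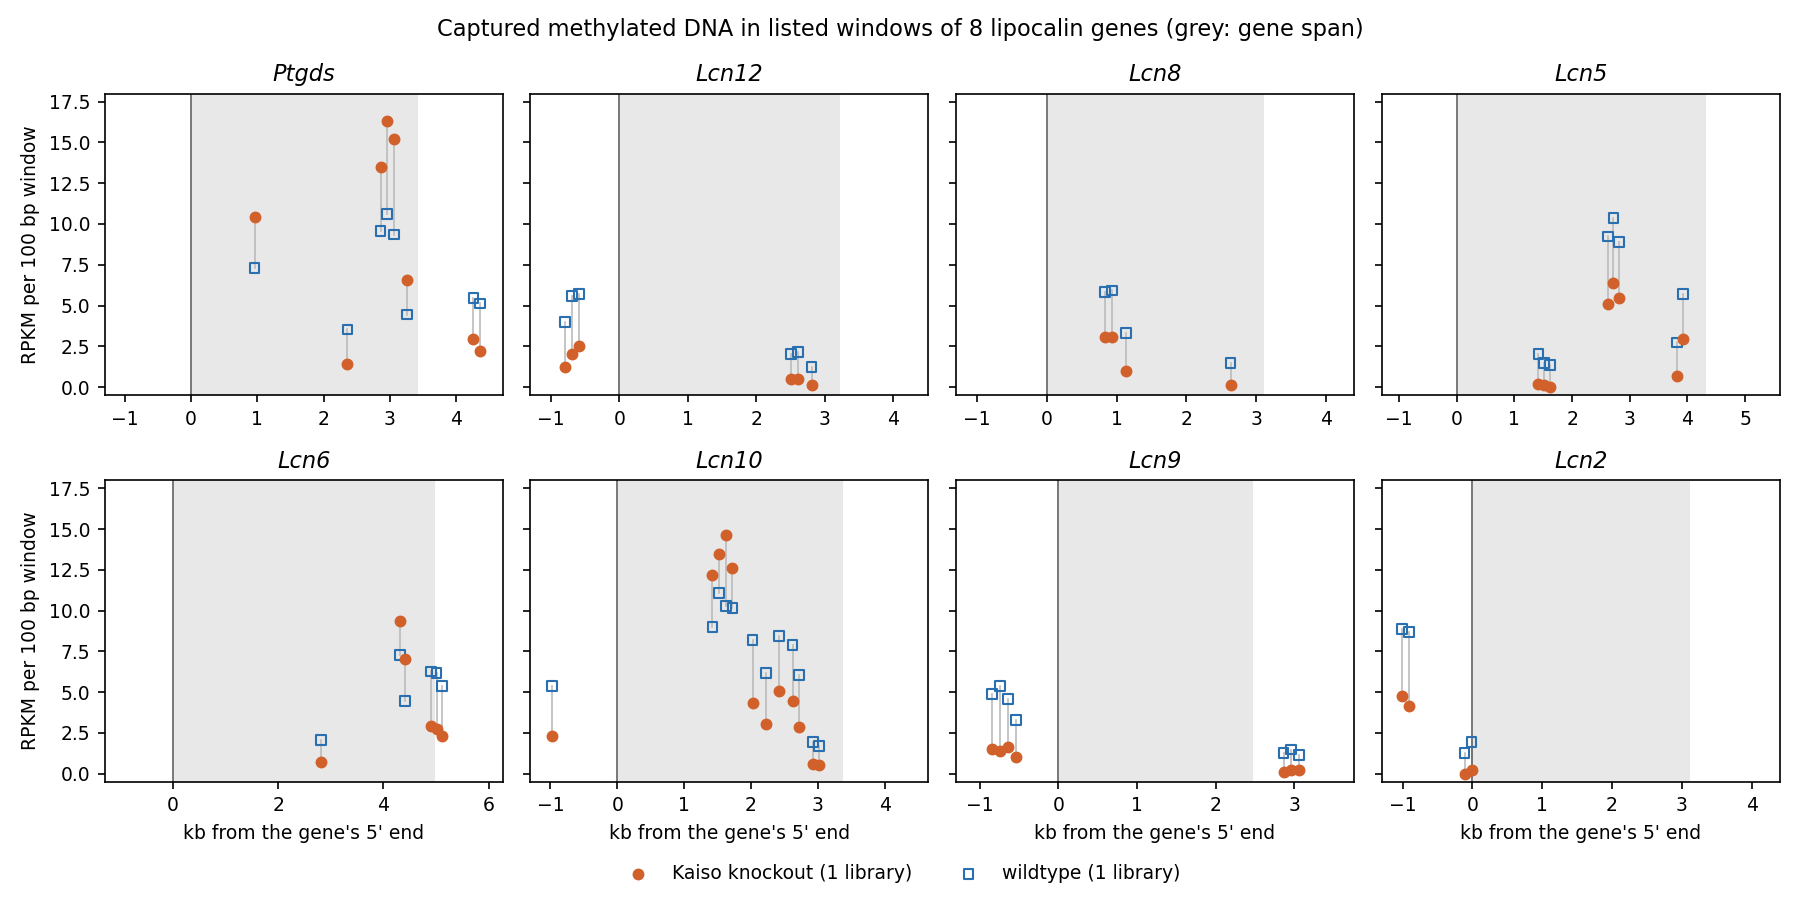
Captured DNA in every listed window of the 8 genes, in RPKM per window of 100 bp, against the distance in kb from the 5′ end of the annotated gene span (grey), with 1 point per library (knockout filled circles, wildtype open squares). Knockout points lie below wildtype points in 43 of the 54 windows and above them in 11, all inside Ptgds, Lcn6 and Lcn10.

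At gene level 5 of the 8 members, Lcn12, Lcn8, Lcn5, Lcn9 and Lcn2, had a knockout level at least 2-fold below wildtype with an interval that excludes 1, and 0 were higher. A region needed at least 20 fragments over both libraries, with 4 window counts taken as 1 fragment, and all 8 members reached that. The same rule put 5.7% of 19245 protein-coding genes lower and 9.63% higher. The median log2 ratio of the members was -1.09, and that of all protein-coding genes with the minimum was 0.31. Lcn5 passed the 2-fold limit only barely, at a log2 ratio of -1.001, and was not called with the scaling of the authors' log2 fold change, where 4 members were. With a limit of 1.5-fold the same 5 were lower, against 8.18% of all genes, and 0 were higher, against 21.6%. Calls depended on the region: over the gene span alone 2 members, Lcn8 and Lcn5, were lower. Lcn9 has no listed window there, and Lcn12, with 11 knockout and 48 wildtype counts, and Lcn2, with 2 knockout and 17 wildtype counts, were under the minimum.

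Lcn9 is an epididymal lipocalin at the distal end of the row, on the plus strand from 25823088 to 25825546, and was the lowest member. It held 60 knockout and 193 wildtype counts in 7 windows, all of them lower in the knockout library and none inside the gene (log2 -1.85, -2.79 to -0.98). In the 4 adjacent windows upstream, from 25822201 to 25822600, knockout counts were 15, 14, 16 and 10, against 43, 47, 40 and 29 in the wildtype. The window with 3 CpGs in that run, the second, had a log2 ratio of -1.92 (-2.89 to -1.03). Downstream of the gene, knockout counts were 1, 2 and 2, against 11, 13 and 10 in the wildtype. This member depended on the 1 kb limit. The nearest window beyond it upstream, from 25821501 with 7 CpGs, held 131 knockout and 88 wildtype counts (log2 0.41), and with 2 kb on each side the log2 ratio of Lcn9 was -0.23 and it was no longer called.

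Lcn12, an epididymal lipocalin on the minus strand from 25490845 to 25494061, had 68 knockout and 182 wildtype counts in 6 windows, and all were lower in the knockout library (log2 -1.59, -2.50 to -0.77). The windows fell into a group before the gene's start and one near its end. In the 3 adjacent upstream windows, from 25494601 to 25494900, knockout counts were 25, 20 and 12, against 50, 49 and 35 in the wildtype (log2 -1.40, -2.46 to -0.51). Inside the gene the knockout library had 1, 5 and 5 counts, against 11, 19 and 18 in the wildtype (log2 -2.29, -4.63 to -0.28). The 2 groups did not differ beyond their counting intervals, which overlap.

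Lcn8, first described as the mouse epididymal protein mEP17, lies on the plus strand from 25653118 to 25656217. It had 71 knockout and 145 wildtype counts in 4 windows, all lower in the knockout library and all inside the gene (log2 -1.20, -2.07 to -0.31). Knockout counts were 30, 30, 10 and 1, against 51, 52, 29 and 13 in the wildtype. The second of these, from 25654001, holds 4 CpGs and had a log2 ratio of -0.96 (-1.66 to -0.29), a direction that few windows with 4 CpGs share: 91.7% of those listed had a ratio above 1.

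Lcn5, the epididymal retinoic acid-binding protein, follows Lcn8, from 25657932 to 25662230 on the plus strand. It had 206 knockout and 367 wildtype counts in 8 windows, all inside the gene and all lower in the knockout library (log2 -1.001, -1.51 to -0.49). Its run of 3 windows from 25659301 to 25659600 held 2, 1 and 0 knockout counts, against 18, 13 and 12 in the wildtype. For the last, with a floor of 3 counts, the knockout was at least 4.49-fold lower, and the upper end of the counting interval, which also takes in the error of the wildtype count, was a log2 ratio of -1.64. In the run from 25660501 to 25660800, which carried the most captured DNA of the gene, knockout counts were 50, 63 and 54, against 81, 91 and 78 in the wildtype, with log2 ratios of -0.86 to -0.70. Near the end of the gene, windows from 25661701 and 25661801 held 7 and 29 knockout counts, against 24 and 50 in the wildtype. The thinly covered run had ratios farther from 1 and the well covered one ratios nearer to it. A thinly covered window is listed only with a ratio far from 1, so this contrast is partly set by the listing.

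Lcn2, the siderophore-binding lipocalin known as neutrophil gelatinase-associated lipocalin, lies on the minus strand from 32384637 to 32387739. It had 90 knockout and 182 wildtype counts in 4 windows, all lower in the knockout library (log2 -1.18, -2.04 to -0.47). The 2 windows in the promoter printed above held 2 and 0 knockout counts, against 17 and 11 in the wildtype. The first had a log2 ratio of -3.26 (-6.41 to -1.18), and for the second, with the floor of 3 counts, the knockout was at least 4.12-fold lower, with an upper end of the counting interval at a log2 ratio of -1.50. About 1 kb upstream of the start, windows from 32388601 to 32388800 held 41 and 47 knockout counts, against 76 and 78 in the wildtype, with log2 ratios of -1.06 and -0.90. Without windows under 20 summed counts the log2 ratio of the gene was -0.98, and neither Lcn2 nor Lcn5 (-0.91) passed the 2-fold limit.

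Ptgds, the prostaglandin D2 synthase, from 25466709 to 25470110 on the minus strand, was the only member above 0, with 677 knockout and 486 wildtype counts in 8 windows (log2 0.31, -0.042 to 0.65). Its mean per window was 8.59 RPKM in the knockout, the highest of the 8, and 6.93 RPKM in the wildtype, where Lcn10 was higher at 7.18 RPKM. Inside the gene 5 of 6 windows were higher in the knockout library (log2 0.50, 0.13 to 0.88). The run from 25467001 to 25467300 held 150, 161 and 133 knockout counts, against 82, 93 and 84 in the wildtype, with 5, 2 and 3 CpGs. The other higher windows, from 25466801 and 25469101, held 65 and 103 knockout counts, against 39 and 64 in the wildtype. The interval of the former included 0 (log2 0.57, -0.026 to 1.18). The windows that were lower had less DNA: 14 knockout and 31 wildtype counts from 25467701, and 22 and 29 knockout counts against 45 and 48 wildtype counts downstream of the gene. Just outside the limit, 9 bp further, a window held 10 knockout and 38 wildtype counts (log2 -2.09), so the lower stretch continued past it. Under a scaling that centres CpG-rich windows (5 CpGs or above) on 0, the log2 ratio of Ptgds was -0.35.

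Lcn10 and Lcn6, neighbouring epididymal lipocalins on the plus strand, held both directions side by side. Lcn10, from 25682726 to 25686081, had 750 knockout and 756 wildtype counts in 12 windows (log2 -0.18, -0.47 to 0.12). Its 4 adjacent windows from 25684101 to 25684500 held 120, 133, 144 and 124 knockout counts, against 79, 97, 90 and 89 in the wildtype, and were all higher in the knockout library. The second and the last had intervals that include 0, at 0.29 (-0.10 to 0.68) and 0.31 (-0.094 to 0.72). The 7 listed windows beyond that run were all lower, with 5 to 50 knockout and 15 to 74 wildtype counts and log2 ratios of -1.75 to -0.73. Captured DNA dropped at the same place: wildtype values were 9.01 to 11.1 RPKM in the run and 1.71 to 8.44 RPKM beyond it. With only the gene ends read, Lcn10 had a log2 ratio of -0.99.

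Lcn6, from 25676638 to 25681608, had 247 knockout and 277 wildtype counts in 6 windows (log2 -0.33, -0.84 to 0.19). Higher were 2 adjacent windows from 25680901, with 92 and 69 knockout counts, against 64 and 39 in the wildtype. The first had an interval that includes 0 (log2 0.36, -0.12 to 0.84). Further on, 3 adjacent windows across the end of the gene held 29, 27 and 23 knockout counts, against 55, 54 and 47 in the wildtype, with log2 ratios of -1.20 to -1.09. The last of these, from 25681701 to 25681800, also falls in the upstream flank of Lcn10 and counts for both genes. A single window farther inside the gene, from 25679401, held 7 knockout and 18 wildtype counts (log2 -1.53, -3.03 to -0.20).

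Because the ratio of a window follows its CpG count over the genome, the members were read within CpG classes. Their regions were CpG-poor: 44 of the 54 windows (81.5%) held 1 or 2 CpGs, against 66.4% of all listed windows. Among 23 windows with 1 CpG, 2 had a ratio above 1 (8.70%, Clopper-Pearson interval 1.07 to 28.0%), and the share over all listed windows of that class was 37.8%. Among 21 windows with 2 CpGs, 2 were higher (9.52%, 1.17 to 30.4%), against 49.2% over all. Windows that share fragments are not independent, so these intervals are too narrow. Summed counts with 1 CpG were 509 in the knockout and 836 in the wildtype (log2 -0.88, -1.22 to -0.56), where all listed windows of the class gave -0.099. With 2 CpGs they were 677 in the knockout and 970 in the wildtype (log2 -0.69, -0.98 to -0.40), where all gave 0.12. The medians over windows lay nearer to each other, at -1.53 for the members and -1.22 for all windows with 1 CpG, and at -1.20 and -0.71 with 2 CpGs. At least 2-fold lower were 17 of the 23 windows with 1 CpG, against 56.3% of all, and 13 of the 21 with 2 CpGs, against 43.8% of all.

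Windows with more CpGs were few. With 3 CpGs 3 of 5 were higher, in Lcn6, Lcn10 and Ptgds, and the others, in Lcn2 and Lcn9, were lower, while 71% of all such windows were higher. With 4 CpGs 2 of 3 were higher, and both windows with 5 CpGs, in Ptgds and Lcn10, were higher, as were 98.9% of all windows with 5 or more. At least 2-fold lower were 2 of 5 windows with 3 CpGs (22.9% of all), 0 of 3 with 4 CpGs (5.38% of all) and 0 of 2 with 5 CpGs (0.608% of all windows with 5 or more). In the windows with 5 CpGs the log2 ratio was 0.61 (0.054 to 1.19), and in all such windows 0.71. The 4 higher windows with 1 or 2 CpGs lay in Ptgds, Lcn6 and Lcn10. In Lcn10 the window with 1 CpG, from 25684401 with 124 knockout and 89 wildtype counts, lay beside the one with 5 CpGs, with 144 knockout and 90 wildtype counts. In Ptgds the window with 2 CpGs, from 25467101, likewise lay beside one with 5. The other 2 did not: that of Lcn6, from 25681001, lay beside a window with 3 CpGs. The Ptgds window with 1 CpG, from 25466801, adjoined no listed window.

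**Figure D2:**
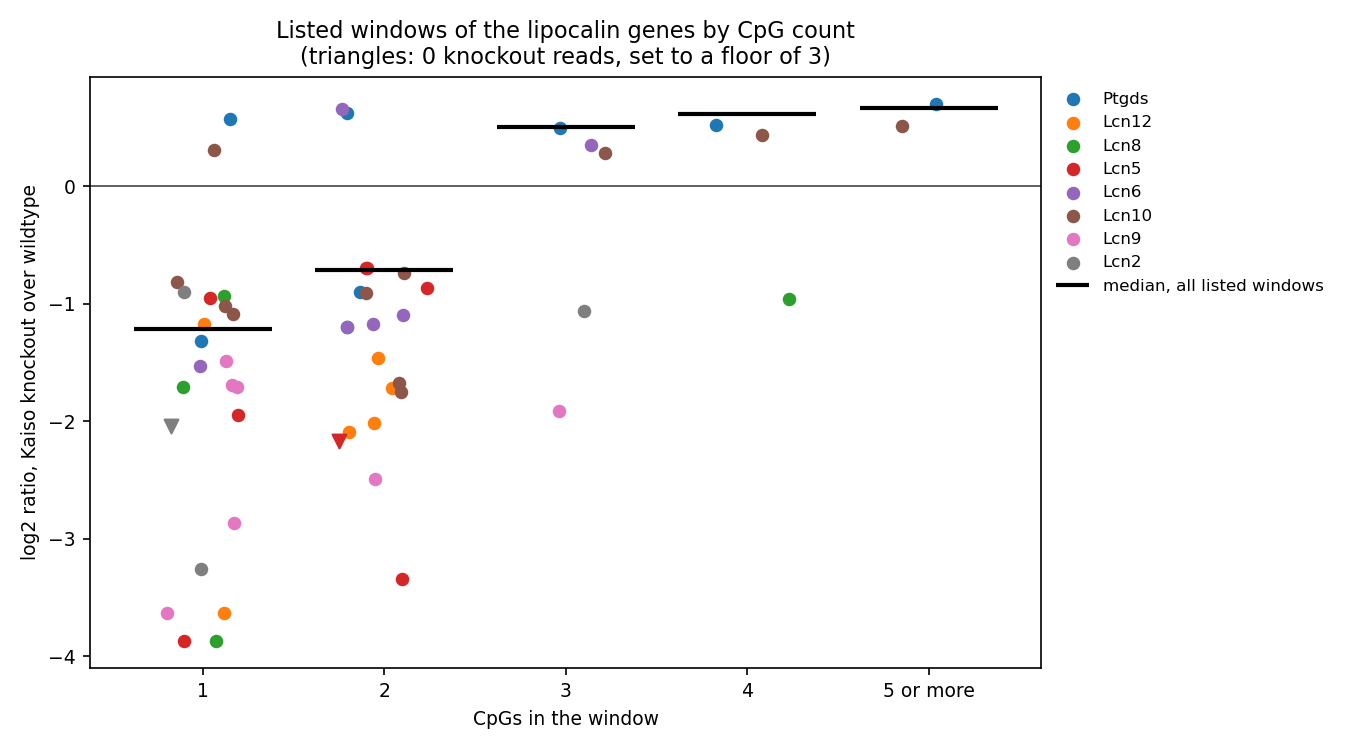
Log2 ratio of knockout over wildtype of the 54 listed windows by their number of CpGs, coloured by gene, with the median of all listed windows of the class as a bar; triangles are windows without a knockout count, set to 3 counts. With 1 and 2 CpGs 40 of the 44 member windows lie below 0, and both windows with 5 CpGs lie above it.

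Each gene ratio was then set beside that of its CpG composition. Applying to each member the genome-wide ratio of windows with its CpG counts gave log2 values of 0.053 to 0.33, all above 0, and all 8 members lay below theirs. The counting intervals of Lcn6 and Ptgds contained their values, 0.18 and 0.33. Over all protein-coding genes with the minimum, the median gap between a gene's ratio and its value was 0.017. The share of all genes below theirs was not counted. The gap was -1.91 for Lcn9, -1.64 for Lcn12, -1.40 for Lcn8, -1.32 for Lcn2 and -1.08 for Lcn5. It was -0.52 for Lcn6, -0.41 for Lcn10 and -0.022 for Ptgds. Because thinly covered windows need a ratio farther from 1 to be listed, the same was done with windows of like summed count. That alternative was added after the data were seen. That moved the value for Lcn9 to -0.61 and for Lcn12 to -0.50, leaving gaps of -1.24 and -1.09. The gap was then -1.38 for Lcn8, -1.37 for Lcn2 and -1.23 for Lcn5. For Lcn10, Lcn6 and Ptgds it was -0.43, -0.32 and -0.014, and the intervals of Lcn6 and Ptgds again contained their values.

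**Figure D3:**
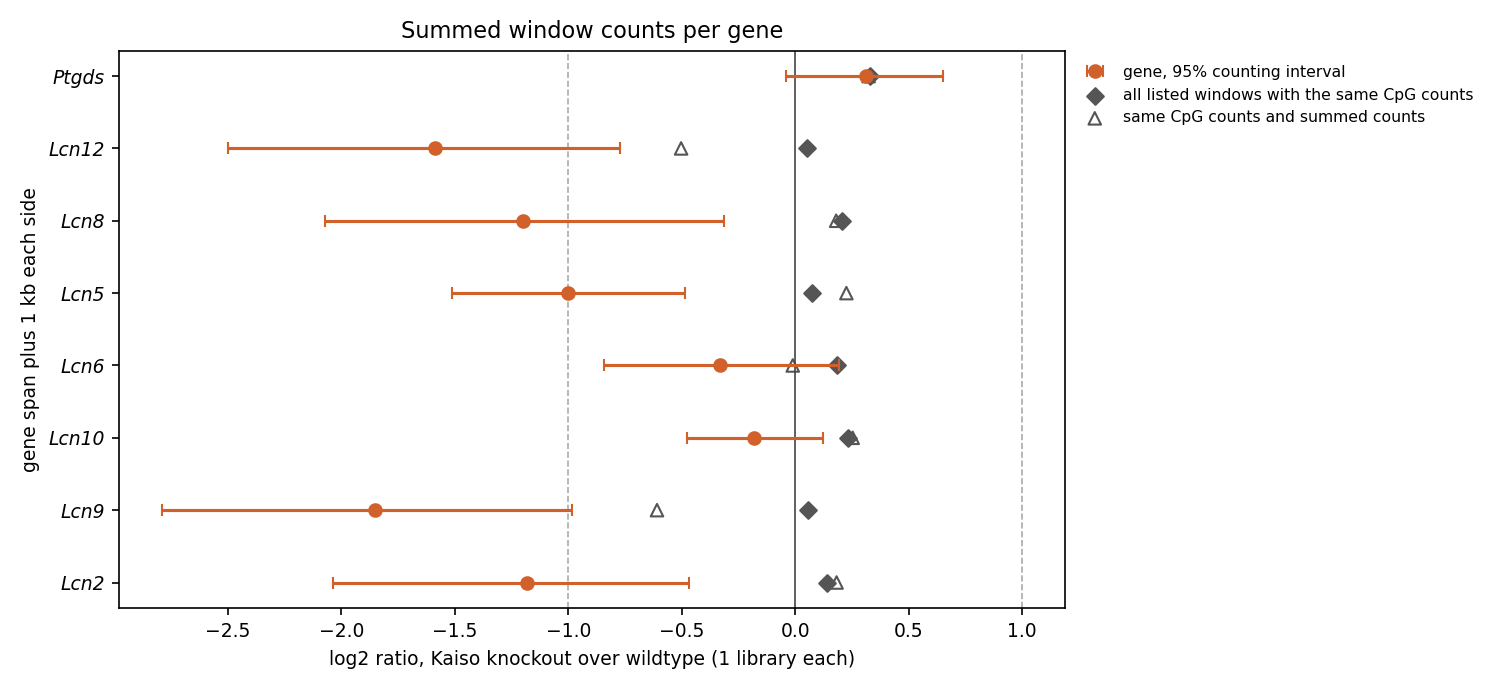
Log2 ratio of knockout over wildtype of summed window counts per gene with the 95% counting interval (circles), beside the ratio of all listed windows with the same CpG counts (diamonds) and with the same CpG counts and summed counts (open triangles); dashed lines mark 2-fold. The circles of Lcn12, Lcn8, Lcn5, Lcn9 and Lcn2 lie between -1.85 and -1.001, and that of Ptgds, at 0.31, lies beside its diamond, at 0.33.

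By position, the higher windows all lay inside genes. All 10 distinct windows of the upstream flanks were lower in the knockout library, with 200 knockout and 458 wildtype counts (log2 -1.36, -1.87 to -0.87). They came from Lcn9 (4), Lcn12 (3) and Lcn2 (3) only. Most flank windows were adjacent to another, and adjacent windows share fragments and are not independent. All 6 of the downstream flanks were lower as well, with 79 knockout and 174 wildtype counts (log2 -1.31, -2.15 to -0.51), the shared window being placed downstream of Lcn6. The others lay at Lcn9 (3) and Ptgds (2). Inside the gene spans 11 of 38 were higher, with 1867 knockout and 1909 wildtype counts (log2 -0.20, -0.39 to -0.012). Across the regions of all protein-coding genes, 69.2% of flank windows and 56.9% of span windows were higher. Most windows of both places held 1 or 2 CpGs, 14 of the 16 in the flanks and 30 of the 38 in the spans. Every member window with 4 or 5 CpGs lay in a gene span. Among windows with 1 or 2 CpGs, 0 of 14 in the flanks and 4 of 30 in the spans were higher. Over all protein-coding genes the shares for such windows were 58.1% in the flanks and 42.7% in the spans. With 3 or more CpGs, 0 of 2 in the flanks and 7 of 8 in the spans were higher, against 88.3% and 84%. The part of CpG count in the difference between flanks and spans was not tested. Exons and introns were not in the annotation used here.

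The authors' relative methylation score, which the MEDIPS tool corrects for CpG density, gave the same direction for all 43 lower windows, as it did for all but 2 of the 1104556 lower windows of the whole table. In the 43 lower member windows its median was 0.107 in the knockout and 0.239 in the wildtype. Of the 11 higher windows 9 had a higher score in the knockout, against 88.9% of all higher windows, with medians of 0.266 in the knockout and 0.190 in the wildtype. The exceptions were windows of Lcn10 with 4 and 5 CpGs, at 0.157 and 0.163 in the knockout, against 0.165 and 0.183 in the wildtype. The highest score stood in the Lcn10 window with 1 CpG beside them, at 1.90 in the knockout and 1.23 in the wildtype.

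**Figure D4:**
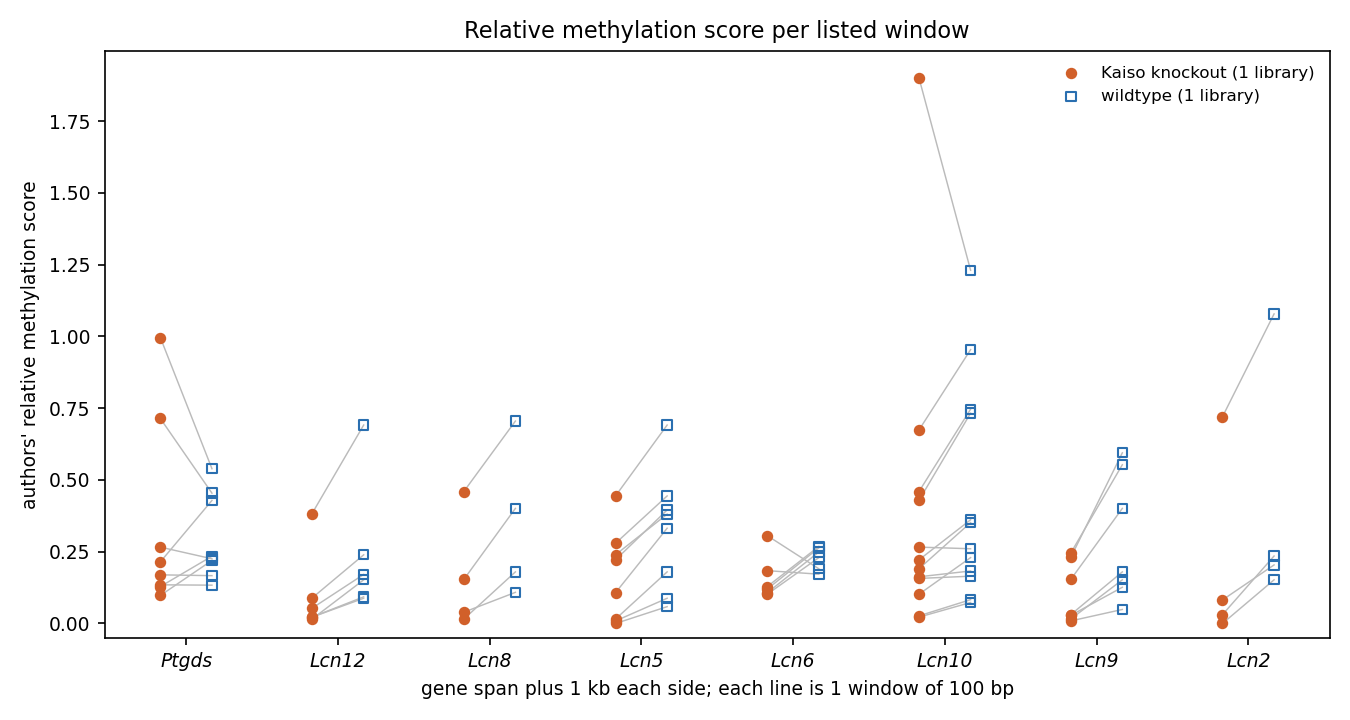
The authors' relative methylation score of each listed window, 1 line per window from the knockout (left, filled) to the wildtype (right, open), by gene. Every line of Lcn12, Lcn8, Lcn5, Lcn9 and Lcn2 is lower in the knockout, and 9 lines of Ptgds, Lcn6 and Lcn10 are higher in it.

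Other genes of the lipocalin family were read the same way. Of 41 listed names 38 matched the annotation and 28 had the minimum, of which 15 were lower and 0 higher, with a median log2 ratio of -1.15. Most of the lower ones, 12, were Mup genes, which encode the major urinary proteins of liver and whose near-identical copies can share reads. Lcn4 was the lowest at -2.72 (14 knockout and 82 wildtype counts), Mup8 lay near the median at -1.24, and Mup5 was the highest at 0.72 (0.53 to 0.90). Inside the span from Ptgds to Lcn9 lie 6 further lipocalin genes, named here for their position, and of the 5 with the minimum 0 were called. Obp2a, an odorant-binding protein gene, had 283 knockout and 483 wildtype counts (log2 -0.94, -1.38 to -0.50). Obp2b, its neighbour, had 7694 knockout and 4928 wildtype counts in 61 windows (log2 0.47, 0.37 to 0.58). C8g, the complement C8 gamma chain, had 0.35, Lcn15 0.60 and Lcn11 -0.086, so lipocalin genes of 1 row stood on both sides of 0. Lcn3, under the minimum, held 6 knockout and 44 wildtype counts.

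Other epididymal secretory genes, among them beta-defensins, cystatins, ribonucleases and protease inhibitors, were spread widely. Of 52 names 51 matched and 42 had the minimum, 8 were higher and 7 lower, and the median was 0.34, near the 0.31 of all genes. Pate4 was the lowest at -2.66, Npc2 lay at 0.34, and the cystatin gene Cst12 was the highest at 4.61 (3.22 to 6.51), with 438 knockout and 16 wildtype counts. Of 24 protein-coding genes within 50 kb of a member 2 were higher and 1 lower, with a median of 0.36. Tmem141 was the lowest at -3.05, Clic3 lay at 0.36, and Bmyc, with 143 knockout and 0 wildtype counts, was at least 10.6-fold higher against a floor of 12 window counts. The lower end of the counting interval of Bmyc was a log2 ratio of 3.04. Differences between these lists and the members were not tested.

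**Figure D5:**
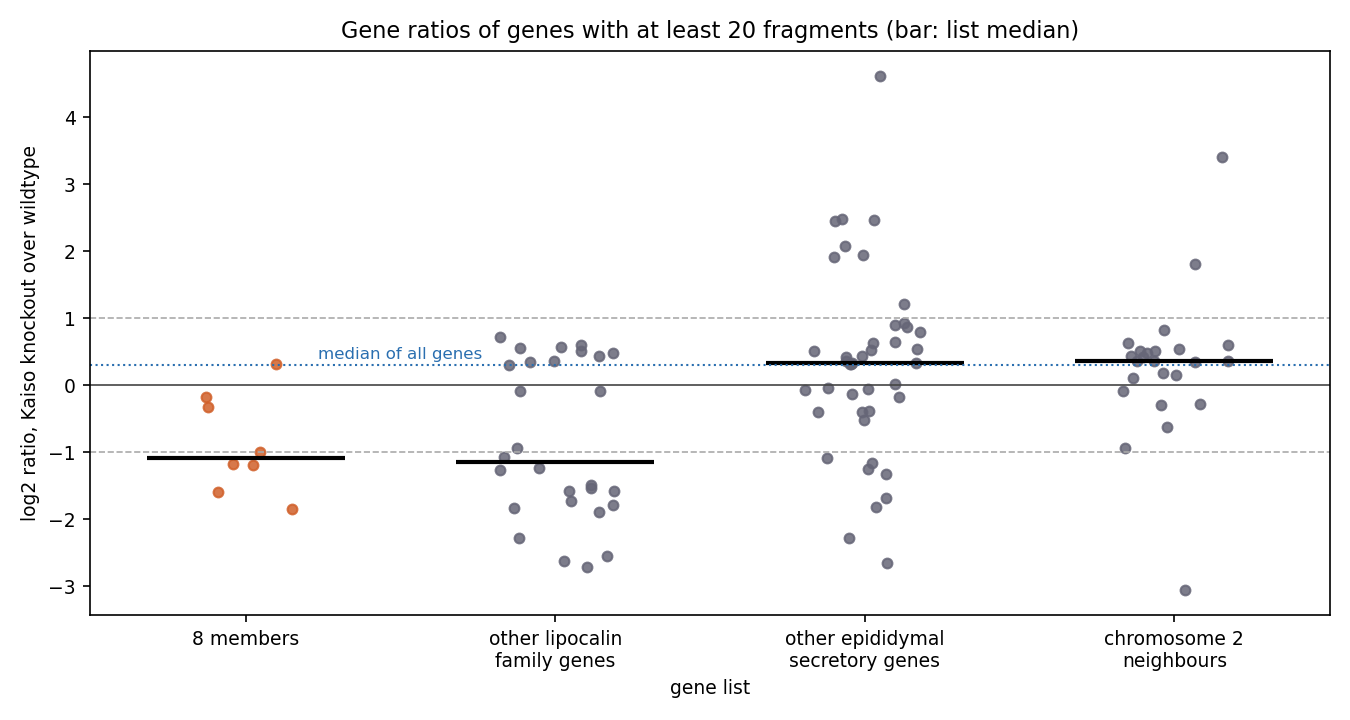
Log2 ratio of knockout over wildtype per gene, for the 8 members and 3 gene lists, each gene with at least 20 fragments as a point and the list median as a bar; dashed lines mark 2-fold and the dotted line the median of all protein-coding genes. The medians are -1.09 for the members, -1.15 for other lipocalin genes, 0.34 for other epididymal genes and 0.36 for neighbours on chromosome 2.

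Lists of genes whose methylation differs between somatic and germ cells were read in the same libraries. Over the gene span plus 1 kb, 12 of 19 maternally methylated imprinted genes (median 1.43) and 6 of 20 germline genes that somatic cells methylate (median 0.57) were higher, and 0 lower. Of 16 maternally methylated imprinted genes with the minimum at their gene ends, which somatic cells methylate on 1 allele and male germ cells do not, 15 were higher in the knockout library and 0 lower (median 2.50), where 3350 of 14903 protein-coding genes were higher and 2004 lower (median 0.50). Their mean per listed window was 4.53 RPKM in the knockout (2.07 to 8.16 by gene) and 1.09 RPKM in the wildtype (0.244 to 4.99). At their gene ends 16 of the 20 germline genes were higher and 0 lower (median 2.35), with means of 5.93 RPKM in the knockout (3.75 to 11.6) and 1.54 RPKM in the wildtype (0.428 to 9.29). No gene of either list was at 0 in either library. In whole testis DNA, a change in methylation within a cell type and a change in the shares of cell types cannot be told apart, and the part of that share in the lipocalin ratios was not tested.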

How the data were processed

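Methylated DNA of 1 Kaiso knockout and 1 wildtype mouse testis was captured with the MBD2 domain and sequenced. Bowtie2 2.2.6, edgeR and build mm10 stand in the submitters' processing notes. The libraries share 1 table of 100 bp windows with MEDIPS column names, per the file headers. The authors deposited the read count of each window, its RPKM, a relative methylation score and the CpG count. The deposited log2 fold change is wildtype over knockout and was turned round, and it placed the knockout 0.13 higher than library reads do. The deposited p-value is below 0.05 in every window, and the adjusted column equals it. Another 10 columns of values per sample or group were not used.

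Windows overlapping each gene span (GRCm38.p6, the assembly of mm10) plus 1 kb were summed. Ratios are knockout over wildtype, scaled by library reads, which were read as count over RPKM. A read is counted in several windows, so sums were divided by 4 before exact Clopper-Pearson 95% intervals were taken, while a single window's count was used whole. PCR copies are not independent molecules, so intervals and floors cover counting error only. A library at 0 was set to 3 counts in a window or 12 over a region. The call rule asked for 20 fragments, 2-fold and an interval excluding 1, and was tested on simulated data. All 8 members were named, each with its best covered window, its longest run and the windows of highest and lowest ratio among those with 20 counts, and from each list the lowest, the highest and the one nearest its median, plus the lipocalin genes inside the span. The members and lists were chosen with earlier results of these data known. Other scalings, regions, filters, divisors, minimums and folds were tried. Python 3.11.15, scipy 1.17.1, and edgeR 4.0.16 for TMM factors, were used.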

Additional observations from a re-analysis of the deposited data

How the results depend on the processing

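No paired analysis was possible because each genotype has 1 library. The count of members called higher was 0 in each setting tried, and no result changed sign after being called. Lower were 5 of 8 members with library reads, and 3 of 8 without windows under 20 summed counts (Lcn12, Lcn8 and Lcn9). Over gene spans alone 2 of the 5 members with the minimum were lower. With a deposited p under 0.001, 2 of the 3 members with the minimum were lower. In the other settings 4 or 5 were lower.

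The summed log2 ratio of -0.41 was -0.68 with autosomal window counts, -0.59 with TMM, -1.07 with CpG-rich windows (5 CpGs or above) centred on 0, -0.61 with scaling within CpG classes and -0.20 over gene spans alone. The member median of -1.09, over 8 members, was -0.21 over gene spans alone, where 5 members had the minimum. Lcn9, Lcn12 and Lcn2 were not among them, so these medians cover different sets of members. Lcn8 and Lcn5 kept log2 ratios of -1.20 and -1.001 there, and Lcn6, Lcn10 and Ptgds had -0.21, -0.13 and 0.50. Over all genes the median shifted by -0.27 with autosomal counts, -0.17 with TMM and -0.66 with CpG-rich windows centred. The shift was 0.13 with the authors' scaling and -0.29 within CpG classes.

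With CpG-rich windows centred, the ratios with 1, 2, 3, 4 and 5 or more CpGs were -1.54, -1.34, -0.66, -0.45 and -0.051, and 1.85% of windows were higher against 20.4%. Within CpG classes the ratios with 4 and with 5 or more CpGs were -0.42 and -0.089. Within CpG and count classes, an alternative chosen after seeing the data, those with 3, 4 and 5 or more were -0.43, -0.47 and 0.010, and 9.26% of windows were higher. With p under 0.001, which left 10 windows, those with 1, 2 and 3 CpGs were -2.23, -0.079 and -1.33. Causes of these shifts were not tested. The depth was 54 to 377 fragments per gene. Over the gene span plus 1 kb, intervals included 0 for Lcn6 (131 fragments), Lcn10 (377) and Ptgds (291), whose log2 ratios lay nearest 0. The interval of Lcn8, with the fewest fragments (54), excluded 0.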
